A study of Rattus norvegicus with 6 samples.

Results

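The genes described are 54 genes of DNA replication and mitosis, followed on 6 rat expression arrays that carry 19956 gene symbols. They were picked by symbol, and where a gene had several probes the one with the highest mean over the authors' 6 log2 columns was used. By role, 19 act in DNA replication, 31 in mitosis and 4 in the control of entry into S phase. The study set iron chelation in a cell line beside dietary iron deficiency in animals. FAO cells, a line derived from a rat hepatoma, were left untreated or were given the iron chelator deferoxamine (DFO) at 100 µM for 24 h. Wistar rats ate the AIN-93G diet with iron (called control here) or without iron for 4 weeks, and liver and kidney were taken. The labels call the animals mice in places, while the organism is given as rat, and they state neither age nor sex. Each of the 6 groups is 1 array of pooled RNA. For FAO cells 3 cultures were pooled, and for liver or kidney 6 animals. There is therefore no replicate check, no test was possible, and a gene is called higher or lower only by size, at 2-fold or more. Errors given with ± are standard errors from the spread between repeated spots on an array, which measure the slide and not the animals or cultures.

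Cells that divide copy their genome in S phase and share it out in mitosis. Before S phase the Mcm2 to Mcm7 helicase is loaded on replication origins by Cdc6 and Cdt1, and Cdc45 and the GINS proteins then switch it on. The clamp Pcna, primase, polymerases, the flap nuclease Fen1 and the ligase Lig1 build the new strands. Mitosis is driven by the kinase Cdk1 with cyclins A and B, by the Aurora and Polo-like kinases and by spindle motors, and it ends when the anaphase-promoting complex, with its activator Cdc20, marks cyclin B for destruction. Iron enters this programme at the ribonucleotide reductase that makes deoxynucleotides and at iron-sulfur clusters of replication enzymes. Most hepatocytes and tubule cells of an adult rat are out of the cell cycle, while FAO cells divide in culture. Whether the rats used here were adult is not stated in the labels.

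The promoter letters of the genes are shown first, because the replication and the mitosis genes are compared throughout and differ in them. RefSeq windows (build GRCr8), 250 bases before to 50 after the start site, matched 44 of the 54 genes by symbol. The short motifs below, known from cell-cycle promoters, were searched on both strands. They are the cell-cycle homology region or CHR (TTTGAA or TTCGAA), the CCAAT box and the E2F site (TTTCCCGC, TTTCGCGC, TTTGCCGC or TTTGGCGC). Each stretch below is the 150 bases that end just before the start site, 5′ to 3′ on the gene's own strand, with motif matches in capitals. Shown are the mitosis genes Cdk1 and Mki67, which had the largest called liver differences among mitosis genes with both CHR and CCAAT letters in the stretch, and Cdc20, the gene measured on both FAO arrays with such letters and at least 2-fold less signal under deferoxamine. Gins1 and Mcm2 had the largest called liver differences among replication genes with E2F letters in the stretch.
Cdk1 (chr20:19265143-19265292, + strand): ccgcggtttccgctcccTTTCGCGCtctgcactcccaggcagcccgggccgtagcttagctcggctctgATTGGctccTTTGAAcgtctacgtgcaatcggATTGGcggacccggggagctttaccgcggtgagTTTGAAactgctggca
Mki67 (chr1:199952594-199952743, - strand): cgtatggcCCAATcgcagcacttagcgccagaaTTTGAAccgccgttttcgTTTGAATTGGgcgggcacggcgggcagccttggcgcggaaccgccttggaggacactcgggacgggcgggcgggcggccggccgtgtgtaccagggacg
Cdc20 (chr5:137255800-137255949, - strand): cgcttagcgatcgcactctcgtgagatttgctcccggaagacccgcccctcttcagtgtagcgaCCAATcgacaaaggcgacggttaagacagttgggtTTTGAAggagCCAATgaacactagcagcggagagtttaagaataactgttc
Gins1 (chr3:160184770-160184919, + strand): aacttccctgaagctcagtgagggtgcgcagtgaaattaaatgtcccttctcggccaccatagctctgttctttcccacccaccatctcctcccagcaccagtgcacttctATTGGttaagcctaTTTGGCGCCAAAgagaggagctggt
Mcm2 (chr4:122918095-122918244, - strand): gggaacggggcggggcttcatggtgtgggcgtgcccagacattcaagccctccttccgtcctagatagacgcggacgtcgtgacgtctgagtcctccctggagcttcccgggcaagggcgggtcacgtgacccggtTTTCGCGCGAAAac

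Cdk1 shows a CHR 16 bases before the start site (-16) and a second at -72, with CCAAT letters on the reverse strand at -49 and -81 and an E2F match at -133. Cdc20 has a CHR at -51 between CCAAT boxes at -86 and -41. In Mki67 one CHR match and one reverse CCAAT match overlap. In Gins1 and Mcm2 the capitals of the E2F site hold overlapping forward and reverse matches. Over the whole window, CHR letters stood in 18 of 26 mitosis genes (69.2%) and in 3 of 17 replication genes (17.6%), against 21.0% of the 27457 genes in the RefSeq table. E2F letters ran the other way, in 11 of 17 replication genes (64.7%) and 1 of 26 mitosis genes (3.85%, Cdk1), against 2.37% of all genes. CCAAT letters were common to both, in 22 of 26 (84.6%) and 12 of 17 (70.6%), against 39.6%. A match is a description of letters in a window and not a bound site. Aurkb, Ccna2, Ccnd1, Ccne2, Cdc6, E2f1, Foxm1, Mcm4, Tpx2 and Ube2c were not matched.

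**Figure D1:**
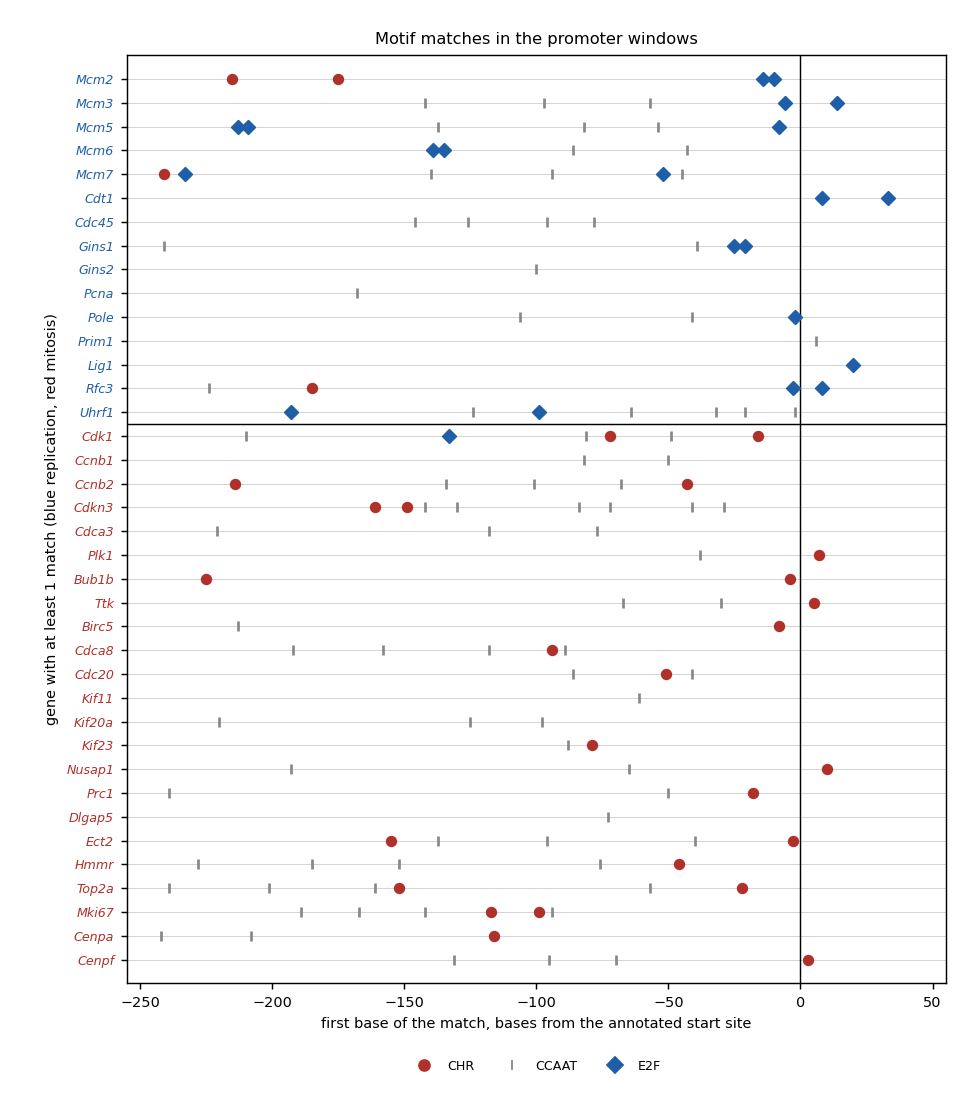
Position of each motif match (first base, in bases from the annotated start site at the vertical line) for the 38 genes with at least 1 match; circles are CHR, vertical ticks CCAAT boxes and diamonds E2F sites. E2F matches sit with the replication genes above the horizontal line, at a median of -14, and CHR matches mostly with the mitosis genes below it, at a median of -51.

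All 6 arrays lie on 1 slide, and between 37.7% and 48.8% of gene probes were well above background on each. The lowest signal of a probe that cleared background, the floor used below, was between 20.2 and 105 units, highest on the kidney arrays. Some patches of the slide, between 2 and 35 blocks of 264 per array, had repeated spots that disagreed, the most on control liver (35), followed by control kidney (19) and deferoxamine-treated FAO cells (18). In the dimmest block of an array, the median log2 difference of a spot from the other spots of its probe was -3.57 on the deferoxamine array, -3.41 on control kidney and -1.03 on control liver. Values without spots in such blocks are given where they matter. Of the 54 genes, 39 have 2 spots, 9 have 10 and 6 have 1 (Gins2, Mcm3, Mcm4, Tpx2, Ttk and Ube2c). For these 6 an error given with ± comes only from repeated spots of other probes of like signal. The labelled tissues carried their markers: 15 of 15 hepatocyte genes were above background on both liver arrays, 11 of 12 kidney genes on both kidney arrays, and 14 of 15 hepatocyte genes on both FAO arrays.

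Untreated FAO cells had more RNA of nearly every gene of the programme than either organ. On that array 53 of 54 genes were above background (Hmmr, a spindle-associated hyaluronan receptor, was not). The counts were 17 in control liver, 41 in iron-free liver, 19 in control kidney and 24 in iron-free kidney. Of all gene probes, 48.44% were above background in untreated FAO cells. The shares were 40.15% in control liver, 47.74% in iron-free liver, 37.7% in control kidney and 40.51% in iron-free kidney. Signal in untreated FAO cells was above all 4 organ arrays for 52 of 53 genes, the exception being Ccnd1, the G1 cyclin D1. At least 2-fold more signal than in control liver was found for 51 of 53 genes and less for 0, where 27.7% of all 10594 genes were called higher and 27.8% lower. The median log2 difference of the 53 was 4.38, counting a gene below background in liver at its lower bound. Against control kidney, 43 of 51 genes were called higher and 0 lower, with a median of 3.47, where 20.2% of 9697 genes were called higher and 30.2% lower. In whole organs, fewer dividing cells and less RNA per cell cannot be told apart.

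The level in each organ can be read as a share of the signal of the same probe in untreated FAO cells. In control liver the 17 genes above background had a median of 4.82% of it, from 0.765% for Cdk1 to 45.9% for Ccnd1. In iron-free liver the 41 genes had a median of 8.78%, from 5.18% for Ube2c, the ubiquitin-conjugating enzyme of the anaphase-promoting complex, to 24.9% for Cdc6. Replication genes there stood at a median of 12.5% (15 genes) and mitosis genes at 7.75% (23 genes). Genes below background are not in these shares, so the medians cover different genes on each array. A gene dim in FAO cells can enter only at a high share. Cdc6 read 49.7 in iron-free liver, against a floor of 37.5 there, and 200 in untreated FAO cells. Control kidney gave a median of 9.04% over 19 genes. In control kidney some levels stood out: Ccnd1 at 143.9% of the FAO signal and the kinase gene Melk at 43.9%. The motor gene Kif11 followed at 34.4% and the ligase gene Lig1 at 25.3%. Between the control organs, kidney was above liver for 19 of the 20 genes above background in one of them, Ccne1 being the exception. These shares and the treated-minus-control differences use the same control arrays and are not independent of each other.

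**Figure D2:**
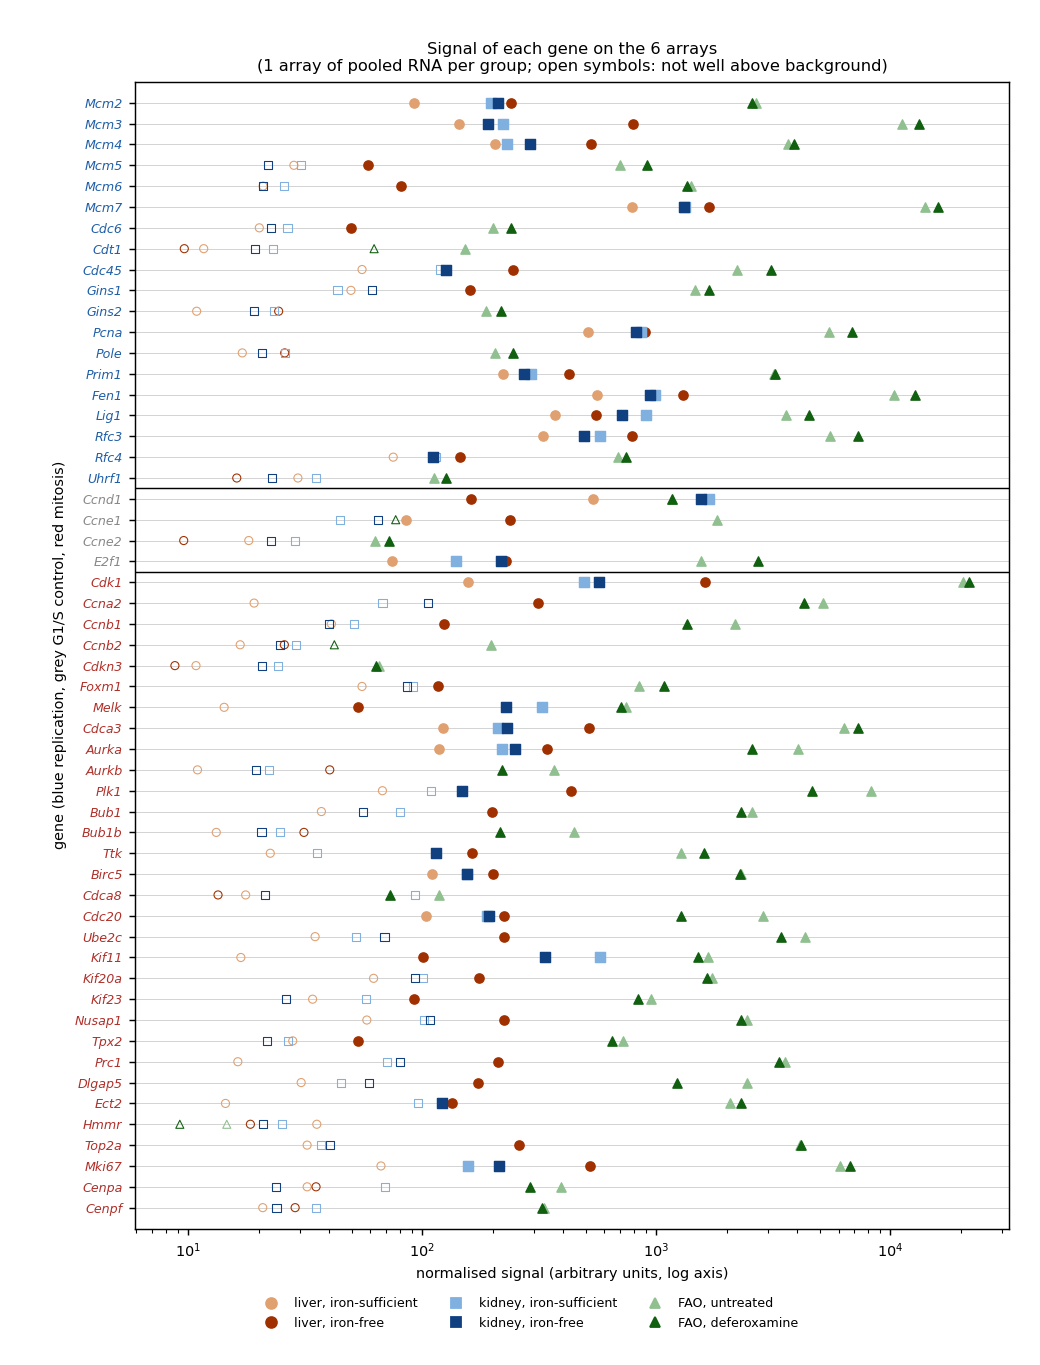
Normalised signal (log axis) of the 54 genes on the 6 arrays, ordered by role; circles are liver, squares kidney and triangles FAO cells, darker symbols the iron-deprived array, and open symbols are not well above background. The FAO triangles lie to the right for nearly all genes. In liver the dark circle lies right of the light one for 40 of the 41 genes above background on the iron-free array, Ccnd1 being the exception. Of these 41 genes, 24 cleared background on the iron-free array only, a choice that leaves little room for the other order.

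In FAO cells 24 h of deferoxamine left most of the programme within 2-fold. None of 53 genes was at least 2-fold higher and 5 were at least 2-fold lower, where 4.05% of 10694 genes were called higher and 6.43% lower. That share of members, 9.43%, is near the background. The median difference was -0.01, against 0.03 for all genes. By class the median was 0.22 for replication genes, 16 of 19 of them above 0, and -0.14 for mitosis genes, 23 of 30 of them below 0. Under each of the 8 other ways of processing, the replication median stayed between 0.20 and 0.32 and the mitosis median between -0.20 and -0.10.

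Cdc20, which activates the anaphase-promoting complex, was the clearest of the lower genes. Its normalised signal was 2857 in untreated and 1273 in deferoxamine-treated cells, 104 and 223 in control and iron-free liver, and 188 and 192 in control and iron-free kidney. The FAO difference was -1.17 ± 0.27 (2.25-fold lower), and its spots did not overlap, at 2775 to 2943 untreated and 1100 to 1473 treated, with none in a disturbed block. Plk1, the Polo-like kinase, was just short of the call, at 8257 and 4617 (-0.84 ± 0.16). The B-type cyclin gene Ccnb1 was at -0.68 ± 0.20 and the Aurora A kinase gene Aurka at -0.66 ± 0.17. Cdc20 and these last 3 genes were below 0 in each of the 9 ways of processing.

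The other calls rest on poorer spots. Bub1b, a spindle checkpoint kinase, read 445 untreated and 216 treated (-1.04 ± 0.52), its treated spots lying at 158 and 295; in liver (13.2 and 31.2) and kidney (24.7 and 20.5) it was below background. Ccnb2, the second B-type cyclin, read 196 untreated and was below background at 42.1 treated, at least 4.67-fold lower (-2.22). Without its 1 spot in a disturbed block the Ccnb2 difference was -1.29, measured on both arrays. In liver (16.6 and 25.7) and kidney (28.7 and 24.6) Ccnb2 was below background. Cdt1, the licensing factor, had 152 untreated and 62.2 treated, but its 2 treated spots read 25.1 and 154, and without the disturbed one the difference was -0.01. In liver (11.6 and 9.61) and kidney (23.0 and 19.2) it was below background. For Ccne1, the G1/S cyclin E1, the 2 treated spots read 6.75 and 876 against 1808 untreated. Both lie in disturbed blocks, so its bound of -4.56 has no undisturbed value beside it.

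Disturbed spots touch 2 further mitotic genes. Dlgap5, a spindle protein, was at -0.99, and at -0.42 without its disturbed spot, and the Aurora B kinase gene Aurkb was at -0.74, and at 0.15 without it. Without disturbed spots 4 of 53 genes with a value were called lower, where 389 of 10459 genes were. They were Bub1b, Ccnb2, Cdc20 and Hmmr, the last from 1 untreated spot. On that setting the class medians were 0.20 for replication and -0.16 for mitosis.

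By role, the 8 mitotic kinase, checkpoint and passenger genes had an FAO median of -0.68, 7 of them below 0, and one of -0.38, 6 of them below 0, without disturbed spots. Among them stood Ttk, the Mps1 checkpoint kinase, at 0.32. The 8 spindle and cytokinesis genes with a value had a median of -0.11, from -0.99 for Dlgap5 to 0.17 for Ect2, the exchange factor that starts cytokinesis. The chromosome genes Top2a and Mki67 were at 0.01 ± 0.17 and 0.14 ± 0.07. Mki67, a marker of cells in cycle, read 6103 and 6748, and Cdk1 20470 and 21680 (0.08 ± 0.07). On these probes neither moved beyond 1.11-fold. Other Mki67 probes, also measured on both FAO arrays, were at 0.35 and 0.38. Foxm1, the transcription factor for mitotic genes, was at 0.35 ± 0.12, and its other, dimmer probe was at 0.84.

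Among replication genes each of the 8 fork genes was above 0, from 0.01 (-0.01 without disturbed spots) for the primase gene Prim1 to 0.39 ± 0.16 for the clamp-loader gene Rfc3. Pcna read 5487 and 6853 in FAO cells (0.32 ± 0.16), 508 and 894 in liver, and 863 and 818 in kidney. Fen1, with 10 spots, was at 0.30 ± 0.07. Among licensing and helicase genes Cdc45 was highest (0.48 ± 0.17), and Mcm2 and Mcm6 were at -0.06 and -0.07. By the probes used, the largest positive FAO value of the 54 genes was that of E2f1, at 1546 and 2716 (0.81 ± 0.17). E2f1 is the transcription factor that opens S phase, and its other probe was at 0.39. Ccnd1 was level, at 1169 on both arrays.

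**Figure D3:**
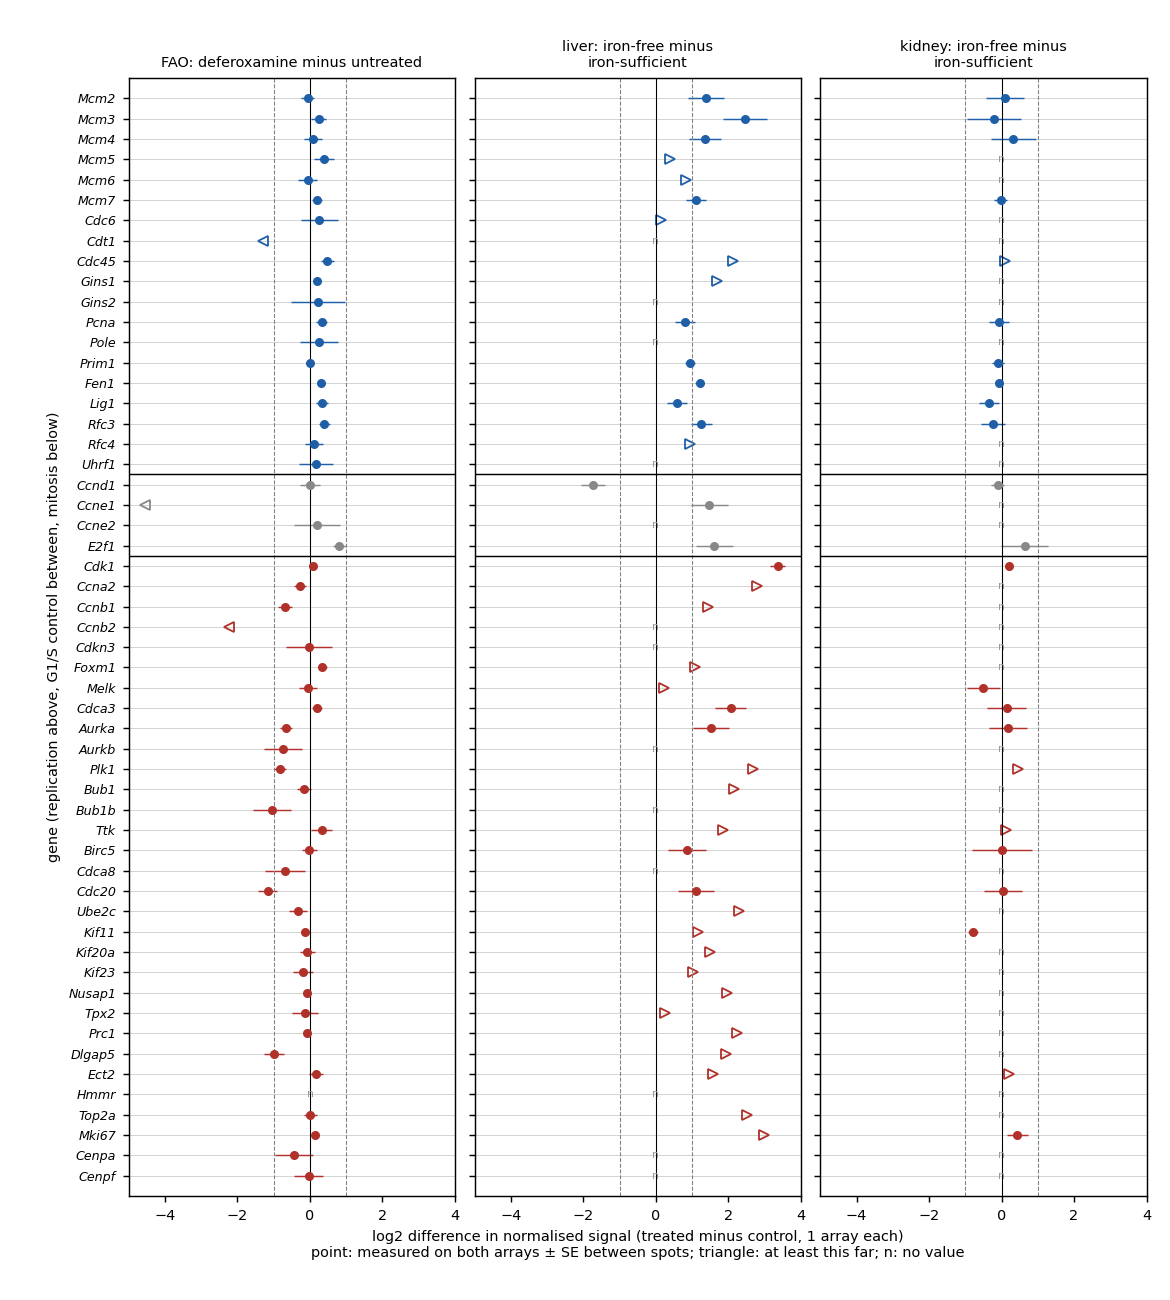
log2 difference, treated minus control, of the 54 genes in FAO cells, liver and kidney; points are genes above background on both arrays with the standard error between spots, triangles are lower bounds pointing the way of the change, n marks no value, and dashed lines mark 2-fold. Only in the liver panel do most values lie beyond the right dashed line, with Ccnd1 alone beyond the left one.

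In liver, most genes of the programme that could be measured in both groups were higher in the iron-free one. On the control liver array 17 of the 54 genes were above background, and all 17 also were on the iron-free array. Of these, 12 were at least 2-fold higher, 4 were within 2-fold and 1, Ccnd1, was lower, where 3.32% of the 8531 genes above background on both arrays were called higher and 2.63% lower. Their median difference was 1.26, against -0.06 for those 8531 genes. A further 24 genes were above background on the iron-free array only and enter as lower bounds, which can only be positive, and 13 were below background on both. With the bounds, 30 of 41 genes were called higher and 1 lower, where 6.52% of 10171 genes were called higher and 3.01% lower. The median of these 41 was 1.45. Normexp background correction adds an offset of 50, which shrinks differences between dim spots. With it 10 of 38 genes with a value were called higher, where 367 of 9597 genes were, and the median of the 38 was 0.73.

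Cdk1 had the largest measured difference. Its 10-spot probe read 157 in control and 1609 in iron-free liver, 491 and 566 in control and iron-free kidney, and 20470 and 21680 in untreated and treated FAO cells. The liver difference was 3.36 ± 0.20, a 10.3-fold higher signal that brought liver above both kidney arrays but left it far under FAO cells. Mki67 read 66.5 (below background) and 522 in liver, 157 and 212 in kidney, and 6103 and 6748 in FAO cells, at least 7.85-fold higher in iron-free liver. Its 2 other probes gave bounds of 1.999 and 1.20 on the log2 scale. Ccna2, cyclin A, read 19.1 (below background) and 311 in liver, 67.6 and 105 in kidney (both below background), and 5138 and 4268 in FAO cells. That is at least 6.91-fold higher in liver, and its other probe gave a bound of 2.45.

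Of the 31 mitosis genes 5 were measured on both liver arrays, and 4 of these were called higher. Another 18 enter as bounds, among them every spindle and chromosome gene with a value, and 8 were below background on both arrays. Among the bounds, Plk1 was at least 6.42-fold higher, Top2a, the topoisomerase that untangles chromosomes, at least 5.74-fold, Ube2c at least 4.94-fold, Prc1, the midzone organiser of the spindle, at least 4.69-fold and the checkpoint kinase gene Bub1 at least 4.42-fold. Among genes measured on both arrays, Cdca3, a trigger of mitotic entry, was at 2.07 ± 0.43 and Aurka at 1.53 ± 0.50. Cdc20, lower in treated FAO cells, was higher in iron-free liver (1.10 ± 0.50, 2.15-fold). Birc5, the passenger protein survivin, was at 0.87 ± 0.52.

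Of the 19 replication genes 9 were measured on both liver arrays, and 6 of these were called higher. Another 6 enter as bounds, and 4 were below background on both arrays. Mcm3 read 143 and 793 in liver, 221 and 191 in kidney, and 11170 and 13200 in FAO cells. Its liver difference of 2.47 ± 0.60 rests on 1 spot per array, and its other probe gave a bound of 1.78. Cdc45 read 55.2 (below background) and 243 in liver, 119 (below background) and 126 in kidney, and 2199 and 3074 in FAO cells, at least 4.40-fold higher in iron-free liver. Gins1 read 49.5 (below background) and 159 in liver, 43.4 and 60.8 in kidney (both below background), and 1461 and 1679 in FAO cells, at least 3.21-fold higher. Mcm2, Mcm4 (also 1 spot per array) and Mcm7 were at 1.38 ± 0.50, 1.36 ± 0.43 and 1.10 ± 0.27, Rfc3 at 1.25 ± 0.29 and Fen1 at 1.21 ± 0.13. Pcna (0.82 ± 0.27), Prim1 (0.94 ± 0.14) and Lig1 (0.59 ± 0.29) were short of 2-fold.

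The 4 genes of S-phase entry did not move together in liver. Ccnd1, which reads growth signals in G1, was the only gene of the 54 with less signal in iron-free liver among those above background. It read 536 and 161 in liver (-1.73 ± 0.32, 3.33-fold lower), 1681 and 1558 in kidney, and 1169 and 1169 in FAO cells, and its liver spots did not overlap (477 to 603 and 155 to 168). E2f1 read 74.5 and 228 in liver (1.61 ± 0.50), 140 and 217 in kidney, and 1546 and 2716 in FAO cells. Ccne1 read 84.8 and 237 in liver (1.48 ± 0.50), 44.6 and 64.8 in kidney (both below background), and 1808 and 76.9 (below background) in FAO cells. Ccne2 was below background on both liver arrays.

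Probes for a second site of the same gene were often too dim to check these values. Second probes for Bub1, E2f1, Foxm1, Mcm2, Mcm4, Prc1 and Top2a were below background on both liver arrays. Of the 31 liver calls, 8 held under each of the 8 other ways of processing: Ccna2, Ccnd1, Cdca3, Cdk1, Mcm3, Mcm7, Mki67 and Plk1. Their smallest values were 1.28 for Ccna2, 2.64 for Cdk1, 1.65 for Mcm3 and 1.05 for Mcm7.

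Erythroid genes with a value were mostly higher in the same liver comparison. Of 13 erythroid genes 6 were above background in control and 7 in iron-free liver. Of the 7 with a value 5 were at least 2-fold higher and 0 lower, where 6.52% of all genes were called higher and 3.01% lower. Their summed signal was 44730 in control and 148100 in iron-free liver, mostly the globin gene Hbb (41600 and 135700). Alas2, the erythroid enzyme of heme synthesis, read 1602 and 5593, while Epor, Gata1, Rhag, Epb42, Ermap and Nfe2 were below background on both arrays. In kidney the erythroid sum was 32900 and 73190. Of 6 genes with a value there, 2 were at least 2-fold higher (Ahsp, the alpha-globin chaperone, and Hbb), where 3.11% of all genes were. Of 18 leukocyte and macrophage genes 3 of the 10 with a value were higher in iron-free liver, with sums of 24800 and 33470. Of 15 hepatocyte genes 2 were higher and 1 lower. For the leukocyte and hepatocyte lists too, the shares of all genes in liver were 6.52% higher and 3.01% lower. The part of other cell types in the liver result was not tested.

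In kidney no gene of the programme was called, with 23 of 54 giving a value, where 3.11% of 8951 genes were called higher and 1.26% lower. The median was 0.03, against -0.03 for all genes. Replication genes had a median of -0.07, which turns to 0.14 when arrays are scaled to the median of detected probes, and mitosis genes one of 0.14. Kif11, the motor that pushes the spindle poles apart, had the lowest value. Its 10 spots gave 573 in control and 334 in iron-free kidney (-0.78 ± 0.14), 16.8 (below background) and 101 in liver, and 1665 and 1509 in FAO cells. Melk was at -0.50 ± 0.45. At the other end stood E2f1 (0.63 ± 0.65), Plk1 (a bound of 0.45) and Mki67 (0.44 ± 0.29), and Cdk1 was at 0.20 ± 0.12. The other E2f1 probe was below background in control kidney and read 544 in iron-free kidney, a bound of 2.37, so the 2 probes disagree in size. A further 30 genes were below background on both kidney arrays, so most mitosis genes could not be compared at this signal. Rfc4 cleared background only in iron-free kidney, where its signal was no higher than in control, and has no direction.

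**Figure D4:**
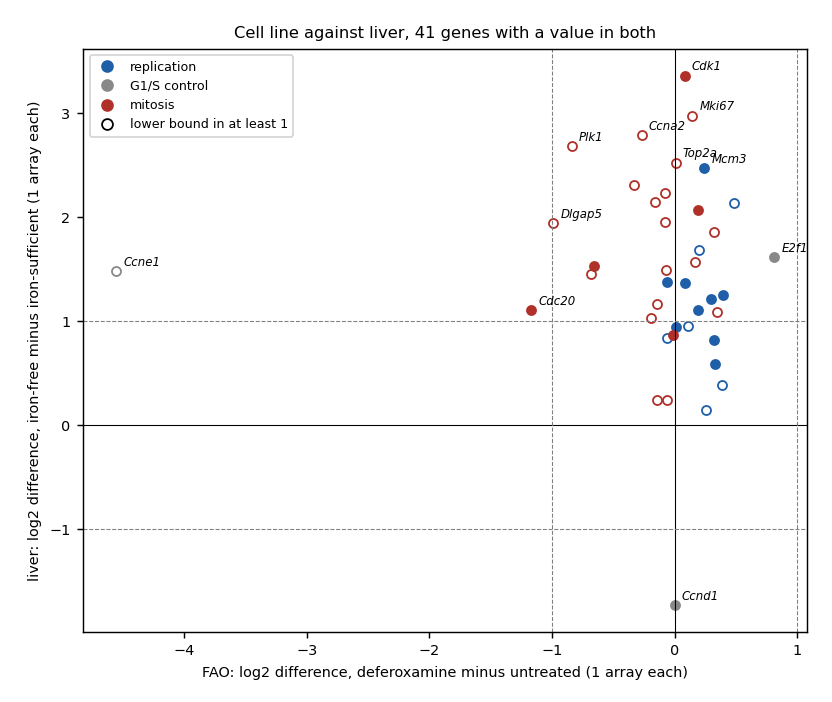
log2 difference in FAO cells (horizontal) against that in liver (vertical) for the 41 genes with a value in both, coloured by class; open symbols are lower bounds in at least 1 of the 2, and dashed lines mark 2-fold. Most genes sit above the upper dashed line and between the vertical ones, Ccne1 and Cdc20 lie left of the left dashed line and Ccnd1 lies alone at the bottom.

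The classes were compared within each system by the gap between their medians. In FAO cells the replication median exceeded the mitosis median by 0.36, and by 0.36 to 0.43 over the other ways of processing. In liver the gap was -0.75, and between -0.98 and -0.20 over the other ways, but 18 of its 23 mitosis values are bounds that could only be positive. Over the genes measured on both liver arrays the medians were 1.21 for 9 replication genes and 1.53 for 5 mitosis genes, too few mitosis genes to order the classes. In kidney it was -0.21. Over the 38 replication and mitosis genes with a value in both FAO cells and liver, the medians were 0.24 and 1.10 for 15 replication genes, and -0.08 and 1.86 for 23 mitosis genes. Whether the class gap itself differs between cell line and organ was not tested, since there is 1 array per group.

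Other genes of the same programme, listed by role with earlier results known, were higher in liver by less where both arrays measured them. Of 55 other mitosis genes on the array, 11 were measured on both liver arrays, with a median of 0.30, 7 of them above 0 and 1 called higher, where 3.32% of genes so measured were. Another 23 enter as bounds that can only be positive, led by Ckap2, a spindle-pole protein, at least 8.33-fold higher and Spc25, a kinetochore subunit, at least 6.77-fold higher. With these, 17 of 34 were called higher and 0 lower, against 6.52% and 3.01% of all genes. Of 36 other replication genes 15 were measured on both liver arrays, with a median of 0.44, 11 of them above 0 and 1 called higher, and with 6 bounds 3 of 21 were called higher, the most Chaf1b, a chromatin assembly gene, at least 6.28-fold. On both-array genes these lists thus stand in the other order, replication above mitosis. In FAO cells the 55 other mitosis genes had a median of 0.11, above 0. Of these, 1 was called higher and 3 lower, where 4.05% of all genes were called higher and 6.43% lower. The 3 were the checkpoint genes Trip13 (-1.36 ± 0.83) and Nek2 (-1.34 ± 0.83), both dim, and the condensin gene Ncapd2, at -1.46 and at -0.28 without its disturbed spot. The negative FAO median of the 31 mitosis genes was thus not shared by this second mitosis list. The 33 other replication genes with a value had a median of 0.16, close to that of the replication genes above.

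Regulators around the programme were counted in short lists. Of all genes, 4.05% were called higher in FAO cells and 6.52% in liver. Of 14 E2F and pocket protein genes, 13 had a value in FAO cells and 10 in liver, and 1 was called higher in each. That was Mybl2, the B-Myb factor of the G2/M complex. It was 2.33-fold higher in treated FAO cells (1.22 ± 0.20) and at least 3.21-fold higher in iron-free liver. Of 7 G1 cyclin and Cdk genes with a value, 1 was called higher in FAO cells and 2 in liver. Cyclin G1 (Ccng1), a p53 target, was 2.60-fold higher in treated FAO cells and 2.66-fold higher in iron-free liver. Among Cdk inhibitors Cdkn1a, the p21 gene, was at 0.28 in FAO cells, 0.37 in liver and -0.02 in kidney. Of 7 Cdk inhibitor genes 5 had a value in FAO cells and 4 in liver. Cdkn2d was the only one called, at least 2.03-fold higher in iron-free liver. Of 12 genes of the replication-linked damage response none was called in FAO cells, where their median was 0.25. In iron-free liver 1 of the 7 with a value was called higher, as a bound: the repair gene Brca2, at least 2.26-fold.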

How the data were processed

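RNA was labelled with Cy3 and hybridised to 6 one-colour Agilent arrays (design 028279), 1 per group, all on 1 slide. Per the file headers, the authors extracted spot intensity with Agilent Feature Extraction 10.7.3.1, and the header names the rn4 build. The deposited series table holds the authors' log2 values and raw intensity per probe.

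The intensity column gProcessedSignal, which the authors' software had background-subtracted, was averaged on the log2 scale over a probe's spots without outlier flags. Each array was scaled to its 75th percentile over 9091 probes detected (well above background) on every array. A probe well above background on 1 array of a pair was compared with the higher of that other array's lowest detected signal and its own signal there, giving a bound ("at least"). A gene is called at 2-fold or more. Standard errors pool the spread between repeated spots in 20 signal bins. Blocks of 16 by 16 spots were called disturbed where spots of a probe differed by over 2 times the array's typical block. The calling rule was also run on simulated pairs. That outcome is not reported here and is not used for any result. With 1 array per group, array number limits the precision.

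The genes, lists and motifs were chosen with earlier results of these data known. Values on all 6 arrays are printed, per class, for the 3 genes with the largest differences, for each gene called lower, and for Mki67, Pcna, Cdk1 and Ccnd1. From each other list up to 3 genes per comparison were eligible for naming, plus Cdkn1a. The other probes of E2f1, Foxm1 and, in FAO cells, Mki67 were picked after their values were seen, as were the named erythroid genes. In all, 8 alternatives were run; normexp correction (limma 3.58.1, R 4.3.3) used the median signal, as the mean signal was not used here. Some genes of the erythroid and damage response lists are not reported here.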

Additional observations from a re-analysis of the deposited data

Results flagged for a closer look

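Among the 54 genes, 2 were called in opposite directions in FAO cells and in liver. Cdc20 was at -1.167 in deferoxamine-treated FAO cells and at 1.103 in iron-free liver, on the log2 scale. Ccne1 was at -4.556 (a bound) in treated FAO cells and at 1.48 in iron-free liver. The difference between cell line and liver was not tested, as each value compares 1 array with 1 array. Both treated FAO spots of Ccne1 lie in disturbed blocks, and none of the Cdc20 spots do.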

How the results depend on the processing

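The limits are the single array per group, the dimness of most of the 54 genes in organs, and disturbed blocks. No paired analysis was possible because each group has 1 sample. In FAO cells 2 of 5 calls held under each of the 8 alternatives (Ccnb2 and Cdc20), in liver 8 of 31, and in kidney there was none to lose; no single gene changed direction past a call. Scaling to the median of detected probes shifted all genes by 0.58 in liver, 0.58 in FAO cells over liver and 1.01 in FAO cells over kidney. The medians of the 54 genes went from 1.45, 4.38 and 3.47 to 2.03, 4.96 and 4.47. With normexp correction, whose offset compresses dim signals, 10 of 38 genes with a value were called higher in liver, where 367 of 9597 genes were. The liver median was 0.73 with a replication-minus-mitosis gap of -0.20, and the FAO medians over liver and over kidney were 3.25 and 3.06. Averaging all probes of a gene gave 1 gene called higher in kidney, E2f1 (2.59). Counting a probe as detected when any spot was gave 1 higher (Ttk, 1.58) and 1 lower in kidney, and a FAO over kidney median of 3.89. The authors' own log2 values gave 29 higher calls in liver, and 5 lower calls in FAO cells.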
